A study of Mus musculus with 13 samples.

Results

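The genes described here encode the proteins of the cytosolic ribosome, and they were followed in chemically induced skin tumours of G9a cKO and G9a WT mice. Members were taken by symbol: every probe set with a single gene symbol of the form Rpl or Rps (Rplp for the stalk) followed by a number, plus Rpsa, and where a gene had several, the one with the highest average signal was read. This gave 70 genes, 45 of the large subunit with its stalk and 25 of the small subunit, among 17097 genes measured by such probe sets. The 70 genes have 133 probe sets in all. Ribosomal protein genes that no probe set with a single symbol reads, such as Rpl5 and Rpl38, were not analysed here.

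Total RNA was measured on 13 Affymetrix arrays, 7 from squamous tumours of G9a cKO mice (replicates 1, 2, 3, 5, 6, 8 and 9) and 6 from those of G9a WT mice (replicates 2, 4, 6, 7, 8 and 9). The label cKO stands for conditional knockout of G9a, the histone H3 lysine 9 methyltransferase encoded by Ehmt2. The sources used here do not name the strain, the sex or the promoter that drives the recombinase. Both groups received the carcinogen DMBA (0.25 mg/ml) and the tumour promoter TPA (0.02 mg/ml), in 200 µl of acetone on shaved back skin, from 8 weeks of age for 6 weeks, and then TPA alone for at most 20 weeks. No label says that every tumour is from a mouse of its own, so p-values refer to the spread of the deposited values, which may in part be technical. All values are log2 signals after RMA as deposited, differences are cKO minus WT, and a gene is called where the adjusted p over all genes is under 0.05.

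The cytosolic ribosome joins ribosomal RNA and about one copy of each ribosomal protein into a small subunit, which reads the mRNA, and a large subunit, which links the amino acids. Because the proteins are needed in equal numbers, their mRNAs are usually made and translated together, and in mammals most of them begin with a cytosine followed by a run of pyrimidines (the 5′ terminal oligopyrimidine tract) through which mTORC1 controls their translation. A few members are second copies of another ribosomal protein gene, some of them with a narrower use, such as Rpl3l of striated muscle and Rpl39l of the testis. In mice, Rps19, Rps20, Rpl24 and Rpl27a are known for mutants with skin, coat colour or brain defects that run through p53.

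The pyrimidine tract is the feature by which these mRNAs are known, so the start sites of several members are shown first. Each line gives the 15 bases before and the 15 bases from the annotated RefSeq start (GRCm38.p6, gene strand, 5′ to 3′), with any run of at least 8 bases that are all C or T in capitals. Rps6, Rps10, Rpl27a, Rpl35 and Rpl14 stand for conventional members with a run across the start. Rpl22l1, Rps27l, Rpl7l1, Rpl39l and Rpl3l are the second copies, and Rps13 and Rpl12 are conventional members that fell.
Rps6, chr4:86857353-86857382, minus strand: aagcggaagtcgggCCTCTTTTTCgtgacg
Rps10, chr17:27635230-27635259, minus strand: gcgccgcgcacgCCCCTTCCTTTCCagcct
Rpl27a, chr7:109519180-109519209, plus strand: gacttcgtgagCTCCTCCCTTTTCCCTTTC
Rpl35, chr2:39005117-39005146, minus strand: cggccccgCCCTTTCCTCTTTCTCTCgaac
Rpl14, chr9:120571502-120571531, plus strand: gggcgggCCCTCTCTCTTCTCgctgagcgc
Rpl22l1, chr3:28805493-28805522, plus strand: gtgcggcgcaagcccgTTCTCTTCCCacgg
Rps27l, chr9:66946071-66946100, plus strand: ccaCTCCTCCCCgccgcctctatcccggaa
Rpl7l1, chr17:46782642-46782671, minus strand: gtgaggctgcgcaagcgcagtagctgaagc
Rpl39l, chr16:10170213-10170242, plus strand: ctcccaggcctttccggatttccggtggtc
Rpl3l, chr17:24727811-24727840, plus strand: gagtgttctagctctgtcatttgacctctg
Rps13, chr7:116334176-116334205, minus strand: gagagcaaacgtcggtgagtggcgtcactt
Rpl12, chr2:32961697-32961726, plus strand: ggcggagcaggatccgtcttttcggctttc

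A run of 8 or more pyrimidines lay in the window of 24 of the 56 members in the promoter table, or 42.9%, against 13.9% of the 27025 genes of the table and 9 of 69 mitochondrial ribosomal protein genes. On the other strand, the same run was found in 5.36% of the members and 15.3% of all genes of the table. The run was 19 bases long in Rpl27a, 18 in Rpl35, 14 in Rpl14, 13 in Rps10 and 10 in Rps6. Among the 5 second copies it was present in Rpl22l1 (10 bases) and Rps27l (9 bases). A run was counted anywhere in the window of any annotated start, so some do not cover the start. Examples are Rpl4 (-15 to -5) and Rpl13a (3 to 15). The run of Rps27l lies before the annotated start, at -12 to -4, and its other annotated start has none. The windows of Rps13 and Rpl12 hold no such run, and the annotated start need not be the one used in these tumours.

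The arrays themselves set limits on small differences. Probe set 2 of Ehmt2 read 6.01 ± 0.10 (SD, n = 7) in cKO and 8.33 ± 0.19 (SD, n = 6) in WT tumours (exact permutation p = 0.000583), whereas probe set 1 read 7.42 ± 0.04 in cKO and 7.29 ± 0.19 in WT tumours (exact permutation p = 0.131). Within a group, arrays that follow one another in the deposit mirrored each other around the group mean, with correlations of -0.97 to -0.81 over the 70 members. The mean of such a pair thus lay near the group mean, and the labels record no adjustment in pairs. Each call was therefore also made with a term for each such pair of arrays, and rose or fell is written below only for genes called by both fits. Neither fit can restore the spread between pairs. Their p-values, and groups without overlap, therefore need not measure the spread between tumours. The spread of values was narrower on cKO arrays, with SDs over all genes of 1.91 to 1.96 in cKO and 1.99 to 2.02 in WT arrays. Differences also varied with the signal level. For genes outside the family, the median was 0.07 between 5 and 6 on the log2 scale, -0.14 between 9 and 10 and -0.05 between 12 and 13. The part of the narrower spread in this was not tested. Spiked hybridisation controls, which do not come from the tumours, read higher in cKO for 18 of 18 probe sets, by 0.06 to 0.49. Fibroblast markers (7 of 10 higher in cKO with and without the pair term, summed log2 level 11.2 to 11.9 in cKO and 10.5 to 11.1 in WT arrays) and endothelial markers (6 of 9 higher, 8.98 to 9.72 in cKO and 7.57 to 8.80 in WT arrays) were also higher in cKO tumours. Keratinocyte markers, with a median level of 11.5, were bright in both groups, as the tissue label says (1 of 11 lower and 1 higher with and without the pair term). As deposited 3 were lower and 1 higher, and their summed log2 level was 14.93 to 15.23 in cKO and 15.07 to 15.28 in WT arrays. Of 9 macrophage markers 2 were higher, and of 8 T and NK cell markers 3 were higher and 1 lower. These marker counts stand beside 14.4% of all genes higher and 10.3% lower with and without the pair term. Under the upper quartile of nonspecific control probe sets (4.29) were 4 fibroblast, 3 macrophage, 2 T and NK cell and 1 endothelial marker. In whole tumours, a change in the share of a cell type and a change of RNA per cell cannot be told apart, and the part of other cell types in the differences below was not tested.

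As deposited, 23 of the 70 ribosomal protein genes were called lower and 2 higher in cKO tumours, beside 20.1% lower and 25.7% higher among all genes tested. Differences were small: the median was -0.070 against 0.017 over all genes, 41 members differed by under 0.1 in either direction, and 0 differed by over 1. The pair term left 7 lower and 1 higher, beside 10.3% and 14.4% of all genes. These 7 were Rpl22l1, Rps13, Rps27l, Rpl12, Rps19, Rpl9 and Rpl10, and the 1 higher gene was Rpl3l. The 2 groups of arrays did not overlap for 8 members with cKO below WT and for 1 with cKO above WT, where all genes gave 8.86% and 14.1%.

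The direction of the family as a whole depended on the scaling between arrays: 23 lower and 2 higher as deposited, 24 and 2 after median centring (beside 21.5% and 23.2% of all genes), 11 and 5 after quantile normalization (16.8% and 27.8%), and 6 lower and 24 higher after cyclic loess normalization (18.6% and 25.4%), which removes differences that follow the signal level. The median difference was -0.070 as deposited, 0.0059 after quantile and 0.057 after cyclic loess normalization. With the pair term on top, quantile normalization gave 3 lower and 2 higher (7.87% and 15.1% of all genes), and cyclic loess 2 lower and 7 higher (8.93% and 13.6%). Of the 23 genes lower as deposited, 18 were no longer called after cyclic loess and 0 were called higher. The 24 higher genes were 22 that had not been called as deposited, with Rpl3l and Rpl39l. Under each of the 4 scalings, Rpl22l1, Rps13, Rps27l and Rpl12 were called lower and Rpl3l and Rpl39l higher, that is 4 and 2 of 70, where all genes gave 14.9% and 21.5%. With the pair term after quantile and cyclic loess normalization, Rpl22l1, Rps13 and Rpl3l were still called, whereas Rps27l (adjusted p = 0.16 and 0.078), Rpl12 (0.098 and 0.16) and Rpl39l (0.067 and 0.083) were not.

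**Figure D1:**
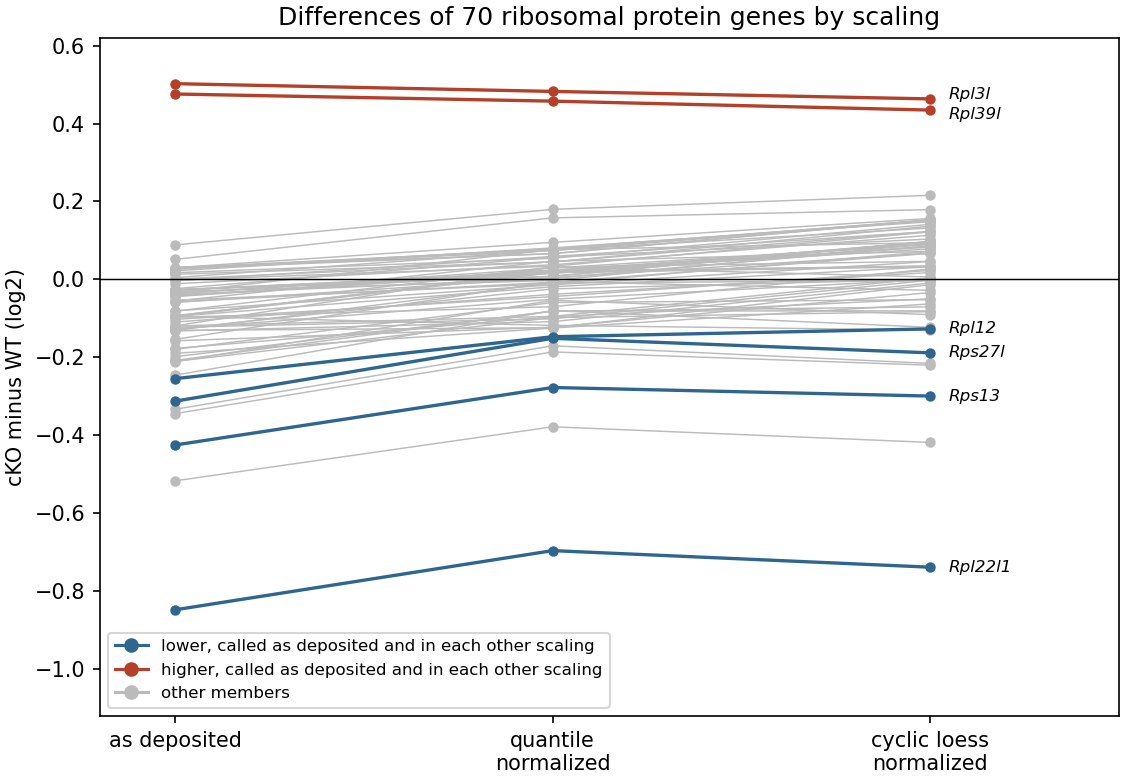
Differences of the 70 ribosomal protein genes, cKO minus WT on the log2 scale (y axis), as deposited and after 2 further normalizations (x axis); each line is a gene. Most lines cross or approach 0 while Rpl22l1, Rps13, Rps27l and Rpl12 stay below it and Rpl3l and Rpl39l above it in each scaling.

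Most members lie at the top of the signal range, where other genes were also lower in cKO, so the members were set beside other genes of equal level. Between 11 and 12 on the log2 scale, 35 members had a median difference of -0.05 and 17.1% were called lower, and 156 other genes had a median of -0.07 and 30.8% were called lower. Between 12 and 13, 18 members had a median difference of -0.03, and 27 other genes -0.05; 33.3% were called lower in both sets. Between 10 and 11, the order was the other way, with a median of -0.18 and 5 of 7 members called lower, against -0.11 and 34.1% of 495 other genes. Between 8 and 9, 2 of 3 members were called lower, and between 9 and 10, 3 of 3, against 29.7% and 31.8% of other genes. Taken against the median of other genes in its own interval of level, the median member differed by -0.001, with 35 members above and 35 below. Within this even split, every member with a mean level between 7 and 11 lay below the median of its level. Of the 17 members below level 11, 11 were called lower and 2 higher, against 12 lower and 0 higher of the 53 at level 11 or more. Rpl22l1 and Rps13 were among the lowest 10% of genes of their level, and Rpl39l and Rpl3l among the highest 10%.

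**Figure D2:**
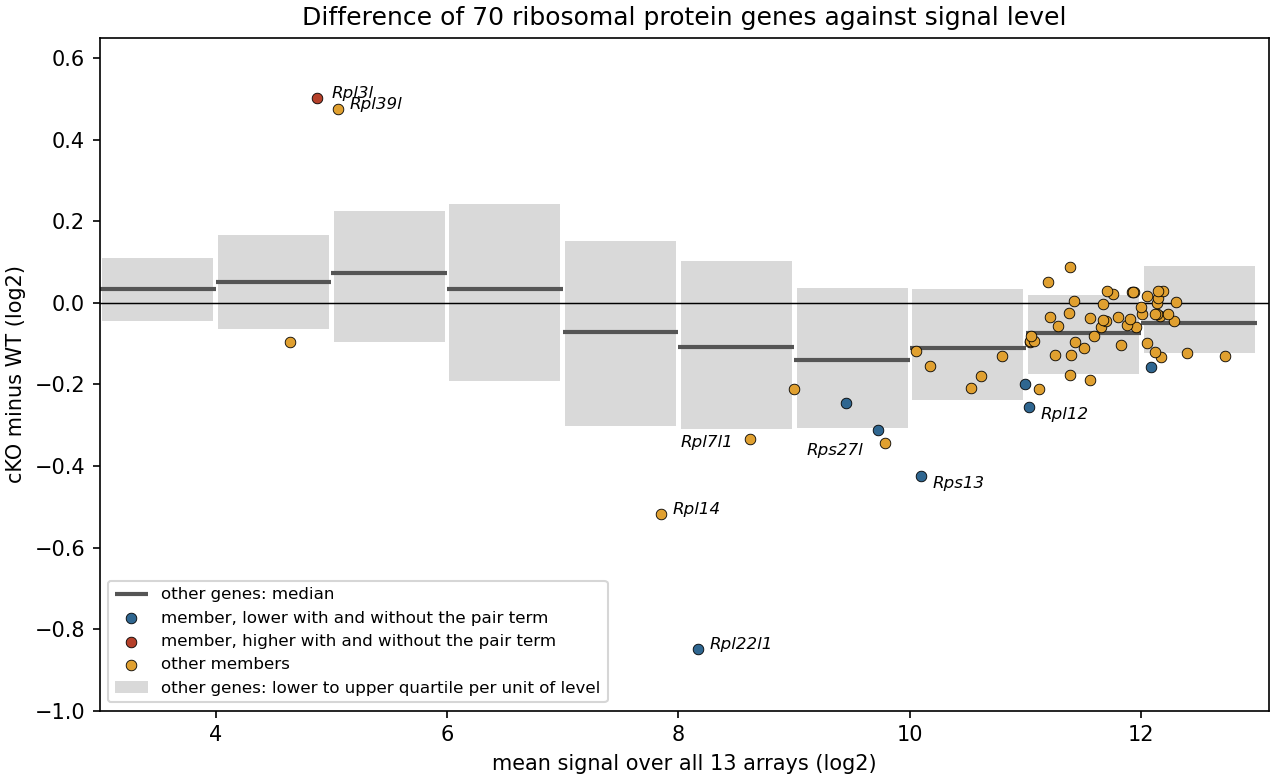
Difference of each of the 70 genes (points, cKO minus WT, log2) against its mean signal over 13 arrays (log2); grey boxes span the lower to upper quartile of all other genes in each interval of level and dark lines their median. The bright members lie close to the median of other genes of their level, whereas Rpl22l1 lies at -0.85 and Rpl3l at 0.50.

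Array by array, the median over all 70 members was 11.44 at the lowest, 11.51 in the middle and 11.60 at the highest in cKO, against 11.59, 11.60 and 11.62 in WT. Of the 7 cKO arrays 6 lay below each WT array, and the remaining one, replicate 2, lay within the WT range. The median of the 53 members with a mean level of at least 11 was 11.68 at the lowest, 11.79 in the middle and 11.87 at the highest on the cKO arrays, against 11.76, 11.81 and 11.85 on the WT arrays. Less the median of the 184 other genes this bright, it lay 0.28 to 0.43 higher on cKO arrays and 0.25 to 0.39 higher on WT arrays. The 2 groups overlap on both measures of the bright members. The deviations of bright members from their group means ran together across the 13 arrays, with a median correlation of 0.54 over 1378 pairs of members, 0.10 over 16836 pairs of other bright genes and 0.07 between a member and another gene. The arrays share their RMA run and the mirrored pairs, and these correlations are given as a description only.

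Among the stalk genes, whose proteins form the flexible arm that recruits translation factors, Rplp0 was the most even. Its signal was 12.04, 12.14 and 12.19 (lowest, median, highest) on cKO arrays, against 12.04, 12.13 and 12.21 on WT arrays, a difference of -0.001 (SE 0.033, adjusted p = 0.98). The difference of Rplp0 was 0.03 after quantile normalization (adjusted p = 0.34) and 0.12 after cyclic loess, where it was called (adjusted p = 0.0032) but not with the pair term (0.068). Rplp2 differed by -0.02 (SE 0.04, adjusted p = 0.64) as deposited and by 0.10 after cyclic loess, where the pair term also ended the call (adjusted p = 0.041, and 0.18 with the pair term). Rplp1 differed by -0.13 (SE 0.06, adjusted p = 0.10) as deposited, with cKO arrays from 11.11 to 11.53 around the narrower WT range of 11.40 to 11.53.

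In the large subunit, 14 of 45 members were called lower and 2 higher as deposited, and 4 lower and 1 higher with the pair term as well. The shares were 31.1% lower and 4.44% higher as deposited, beside 20.1% and 25.7% of all genes. With the pair term they were 8.89% lower and 2.22% higher, the lower share close to the 10.3% of all genes. Rpl12, a neighbour of the stalk on the ribosome, had signals of 10.80, 10.91 and 11.07 on cKO arrays, against 11.07, 11.16 and 11.28 on WT arrays. The highest cKO array lay just under the lowest WT array. The difference of Rpl12 was -0.25 (SE 0.05, adjusted p = 0.0010, and 0.026 with the pair term), and it was the only conventional member of the large subunit called under all 4 scalings without the pair term. With the pair term, Rpl12 was not called after quantile (adjusted p = 0.098) or cyclic loess normalization (0.16). Rpl9, a protein near the base of the stalk, read 10.79, 10.92 and 10.99 in cKO and 11.02, 11.12 and 11.15 in WT arrays, with no overlap, and fell by 0.20 (adjusted p with the pair term 0.022). Rpl10, a late-joining protein of the large subunit, read 11.96, 12.02 and 12.10 in cKO and 12.14, 12.17 and 12.20 in WT arrays, again with no overlap, and fell by 0.16 (adjusted p with the pair term 0.031). After cyclic loess, Rpl9 and Rpl10 were no longer called, at -0.07 and -0.03.

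The large-subunit members with known mouse or checkpoint roles gave smaller differences that did not pass with the pair term. Rpl11, which with Rpl5 and 5S RNA binds and restrains Mdm2, differed by -0.09 (SE 0.05, adjusted p = 0.12). Rpl24, mutated in the Belly spot and tail mouse, differed by -0.10 (SE 0.05, adjusted p = 0.12), and Rpl22, an RNA-binding member that mice can live without, by -0.12 (SE 0.08, adjusted p = 0.22). Rpl27a, mutated in the sooty foot ataxia mouse, was called at -0.11 (adjusted p = 0.027) but not with the pair term (0.14). For Rpl11, Rpl24, Rpl22 and Rpl27a, the difference turned slightly positive after cyclic loess, between 0.0063 and 0.034. Outside the second copies, Rpl14 had the widest difference among the members, -0.52 (SE 0.19, adjusted p = 0.038), but its cKO arrays ran from 6.97 to 8.26 across the WT range of 7.94 to 8.33, and the pair term ended the call (0.15); it was picked out after its values were seen.

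In the small subunit, 9 of 25 members (36%) were called lower and 0 higher as deposited (limma; all genes 20.1% and 25.7%), and 3 lower (12%) with the pair term as well, where all genes gave 10.3%. At an unadjusted p under 0.05 the counts were 9 lower and 0 higher. Rps13, a protein of the platform side of the small subunit, had signals of 9.81, 9.89 and 10.04 on cKO arrays, against 10.19, 10.33 and 10.47 on WT arrays. Each cKO array lay below each WT array. Rps13 fell by 0.42 (SE 0.06, 1.34-fold lower, adjusted p = 6.8e-05, and 0.0064 with the pair term), and by 0.30 after cyclic loess. Rps19, whose human gene is mutated in Diamond-Blackfan anaemia, read 9.23, 9.32 and 9.48 in cKO and 9.46, 9.58 and 9.72 in WT arrays. The highest cKO array lay just above the lowest WT array, and Rps19 fell by 0.25 (SE 0.05, adjusted p with the pair term 0.033), though it was not called after cyclic loess (-0.12, adjusted p = 0.074).

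Rps6, the substrate of the S6 kinases, read 12.24, 12.35 and 12.45 in cKO and 12.40, 12.46 and 12.54 in WT arrays. The groups overlap, and its difference of -0.12 (adjusted p = 0.030) was not called with the pair term (0.16) and was -0.002 after cyclic loess. Rpsa, also known as the laminin receptor precursor, differed by -0.04 (SE 0.03, adjusted p = 0.23), and Rps20 by 0.01 (SE 0.02, adjusted p = 0.68) by its brightest probe set. After cyclic loess Rpsa and Rps20 were both called higher, at 0.08 and 0.14, but neither was called with the pair term on top (adjusted p = 0.19 for Rpsa and just over the threshold for Rps20).

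All 5 second copies were called as deposited, 3 lower and 2 higher, and 2 lower and 1 higher with the pair term. All genes gave 20.1% lower and 25.7% higher as deposited, and 10.3% and 14.4% with the pair term. Whether second copies differ from other genes was not tested. Rpl22l1, the paralogue that Rpl22 protein holds down in mice, had signals of 7.48, 7.84 and 8.02 on cKO arrays, against 8.44, 8.54 and 9.00 on WT arrays. Each cKO array lay clearly below each WT array. Rpl22l1 fell by 0.85 (SE 0.11, 1.80-fold lower, adjusted p = 7.0e-05, and 0.0059 with the pair term), and by 0.74 after cyclic loess. Among other genes with a mean level between 8 and 9, 2.89% had a lower difference. Rpl22 itself read 9.80, 10.01 and 10.21 in cKO and 9.93, 10.09 and 10.29 in WT arrays, so that its groups overlap.

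Rps27l, a paralogue of Rps27 known as a p53 target in human cells, had signals of 9.46, 9.60 and 9.72 on cKO arrays, against 9.77, 9.88 and 10.04 on WT arrays. The groups did not overlap, and Rps27l fell by 0.31 (SE 0.05, adjusted p = 0.00030, and 0.015 with the pair term). Rpl7l1, which resembles a yeast factor of large-subunit assembly, read 8.25, 8.47 and 8.73 in cKO and 8.60, 8.78 and 9.00 in WT arrays. Its difference was -0.33 (SE 0.09, adjusted p = 0.010) but was not called with the pair term (0.076).

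Rpl3l, the striated-muscle paralogue of Rpl3, had signals of 5.01, 5.10 and 5.21 on cKO arrays, against 4.42, 4.63 and 4.74 on WT arrays. Each cKO array lay above each WT array. Rpl3l rose by 0.50 (SE 0.05, 1.42-fold, adjusted p = 1.4e-05, and 0.0035 with the pair term), and by 0.46 after cyclic loess. Rpl39l, the testis paralogue of Rpl39, read 4.94, 5.27 and 5.68 in cKO and 4.48, 4.80 and 5.15 in WT arrays. The groups of Rpl39l overlap, and its difference of 0.48 (SE 0.12, adjusted p = 0.0057) just missed the threshold with the pair term (0.056). Both genes are dim: the 23 nonspecific control probe sets have means from 3.05 to 6.17 with an upper quartile of 4.29, and no detection calls were used here. A conventional member, Rps15a, is dimmer still, with a mean level of 4.65 by its only probe set, and was named after its value was seen. Whether that probe set reads the gene was not tested. Of 10 skeletal muscle markers, 3 were higher and 2 lower in cKO with and without the pair term (Myh1 by 0.58 and Pvalb by -0.40), beside 14.4% and 10.3% of all genes. The summed log2 level of these markers was 8.49 to 8.65 in cKO and 8.53 to 8.77 in WT arrays. Their part in the Rpl3l difference was not tested.

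**Figure D3:**
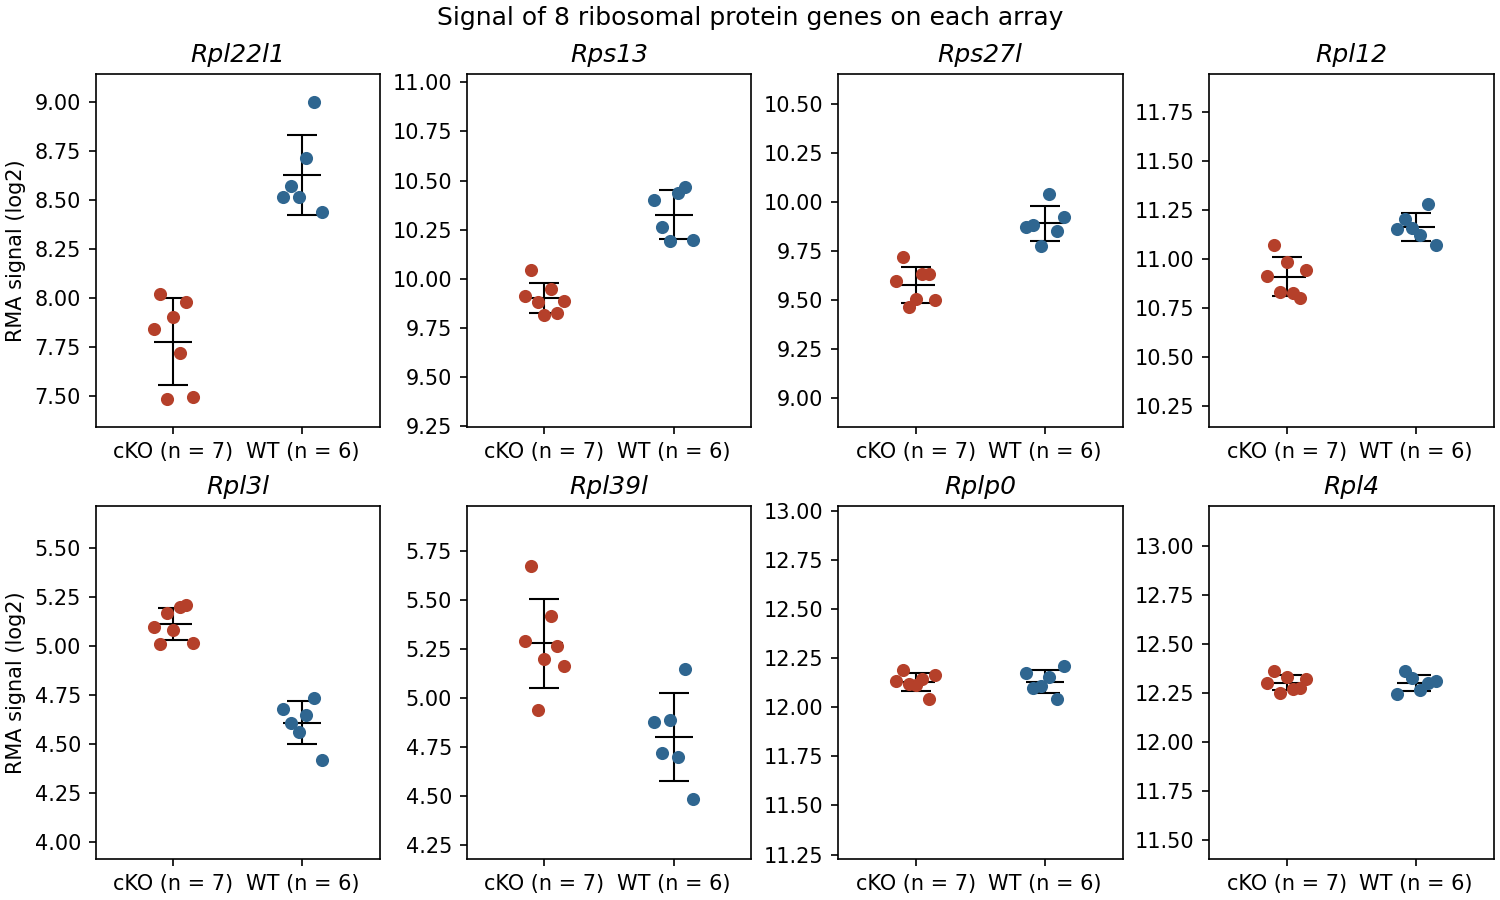
RMA signal (log2, y axis; all panels span the same range of log2 units) of 8 ribosomal protein genes on each array, cKO (n = 7) left of WT (n = 6); black bars give the mean ± SD. Rpl22l1, Rps13, Rps27l and Rpl12 lie lower and Rpl3l higher on each cKO array than on each WT array, while Rplp0 and Rpl4 do not separate.

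A gene's probe sets did not always tell the same story. Over all 133 probe sets, 48 were called lower and 3 higher, beside 22.9% and 24% of all probe sets with 1 symbol, and the 63 that were not read first gave 25 lower and 1 higher. For the 34 genes with over 1 probe set, the median range of the differences within a gene was 0.21, and it exceeded 0.3 for 10 genes. Rps27l (-0.31, -0.24 and -0.58) and Rpl7l1 (-0.33, -0.67 and -0.49) were lower by all 3 of their probe sets, each called when probe sets were tested on their own. Rps13 was called lower by 2 probe sets (-0.42 and -0.58), and the remaining one, of mean level 6.49, differed by 0.06.

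In contrast, Rps20 had a bright pair of probe sets at 0.01 and 0.03 and a dim pair, of mean levels 5.16 and 4.60, at -1.04 and -0.59, both called lower. Rpl11 differed by -0.09 by its bright probe set and by 0.61 by one of mean level 6.35 (adjusted p = 0.00043). Rpl23 was near 0 by 2 bright probe sets (-0.06 each) and lower, by -0.68, by one of mean level 6.61. Which transcripts the dim probe sets read was not analysed here. Another probe set was also called against the sign of the first for Rpl17 and Rpl35, so that 4 members had such a probe set; Rpl17, Rpl23 and Rpl35 were picked out after their values were seen. Of the 70 probe sets read first, 27 carry the array maker's x or s mark for possible matches to other transcripts; of these genes 10 were called lower and 0 higher (limma; 1 at an unadjusted p under 0.05), against 13 lower and 2 higher of the other 43. Ribosomal protein genes have many processed pseudogenes, so the reading of a single copy is uncertain.

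**Figure D4:**
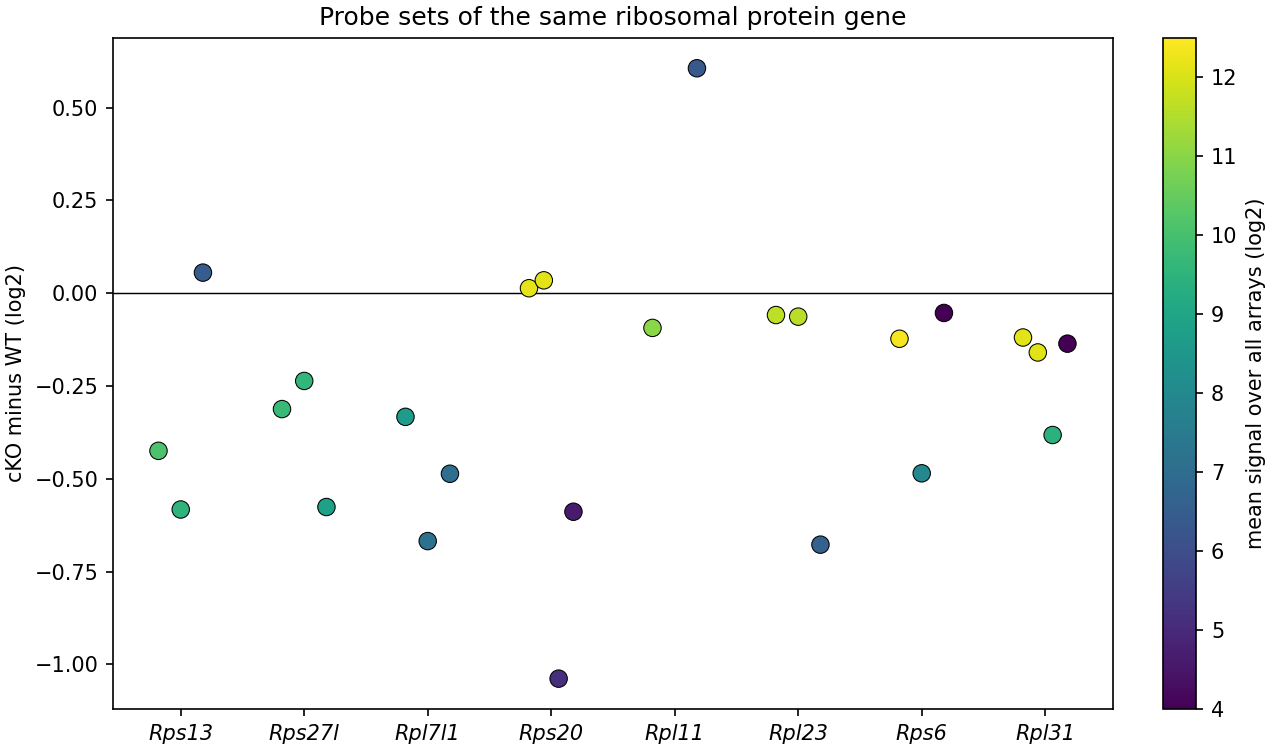
Difference (cKO minus WT, log2, y axis) of each probe set of 8 ribosomal protein genes, coloured by mean signal over all arrays (log2). Probe sets of Rps27l and Rpl7l1 are all below 0, whereas bright and dim probe sets of Rps20 and Rpl11 part, by up to 1.07 for Rps20.

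Genes that make and use ribosomes were read beside the members, from lists drawn up by role. Their counts stand beside 20.1% of all genes lower and 25.7% higher as deposited, and 10.3% and 14.4% with the pair term. In the small-subunit assembly list, 17 of 36 measured genes were called lower and 0 higher as deposited (limma; 1 was higher at an unadjusted p under 0.05), and 7 lower with the pair term, that is 47.2% lower as deposited and 19.4% with the pair term. The lower genes include Utp20, a scaffold of the small-subunit processome (-0.72, SE 0.06, adjusted p with the pair term 0.0020), Emg1, an rRNA methyltransferase (-0.45), and Nob1, the nuclease that finishes 18S rRNA (-0.37). In the RNA polymerase I and nucleolar list, 14 of 23 were called lower and 1 higher, and 6 lower and 1 higher with the pair term (60.9% and 26.1% lower). Rrn3, the initiation factor that brings polymerase I to ribosomal DNA, read 7.39, 7.47 and 7.56 in cKO and 7.95, 8.17 and 8.28 in WT arrays, a fall of 0.67 with no overlap. Nop56 and Gar1, proteins of the particles that modify rRNA, fell by 0.49 and 0.44. The 1 higher gene was Taf1a, a subunit of the polymerase I selectivity factor (0.31), named after its value was seen.

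In the large-subunit assembly list, 11 of 35 were called lower and 4 higher, and 8 lower and 1 higher with the pair term (31.4% and 22.9% lower). Rsl1d1, a nucleolar protein, fell by 0.38 and Mdn1, the large ATPase that strips assembly factors, by 0.39, whereas Rrp1b, another nucleolar protein, rose by 0.30. Mdn1 is dim, at 4.74 to 5.00 on WT arrays, where nonspecific control probe sets reach 6.17. Of 32 initiation factor genes, 12 were lower and 2 higher, and 7 lower with the pair term (37.5% and 21.9% lower), among them Eif1a (-0.65), Eif1ax (-0.44) and Eif3l (-0.23), which take part in start codon selection and 40S binding. Of 17 other genes with pyrimidine-tract mRNAs or ribosome-bound proteins, 10 were lower and 1 higher, and 5 lower with the pair term (58.8% and 29.4% lower). These 5 were the histone chaperone Nap1l1 (-0.64), the nascent chain-binding pair Btf3 (-0.30) and Naca (-0.25), the poly(A)-binding protein gene Pabpc1 (-0.25) and Eif3e (-0.38), of which Naca and Eif3e were named after their values were seen.

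These lists lie at lower signal levels than the members. Median levels were 7.81 (small-subunit assembly), 8.80 (RNA polymerase I), 8.39 (large-subunit assembly), 9.67 (initiation factors) and 10.98 (other pyrimidine-tract genes). As deposited, the share of other genes called lower grew with level. It was 26.2% between 7 and 8, 29.7% between 8 and 9, 31.8% between 9 and 10 and 34.1% between 10 and 11. The 31.4% of the large-subunit assembly list and 37.5% of initiation factors stand beside these shares. Their direction also moved with the scaling. After cyclic loess, the small-subunit assembly list gave 8 lower and 1 higher, the RNA polymerase I list 6 and 4, the large-subunit assembly list 8 and 7, the initiation factors 7 and 9, and the other pyrimidine-tract genes 4 and 3. The shares lower were then 21.9% to 26.1% over the 5 lists, against 18.6% of all genes, and the shares higher were 2.78% to 28.1%, against 25.4% of all genes. Utp20, Emg1, Nob1, Rrn3, Nop56, Gar1, Rsl1d1, Mdn1, Eif1a, Eif1ax, Nap1l1, Btf3 and Pabpc1 were called lower in all 4 scalings, and Rrp1b and Taf1a higher. Of these 15 genes, Btf3 (adjusted p = 0.053 and 0.069) and Pabpc1 (0.063 and 0.098) were not called with the pair term after quantile and cyclic loess normalization, and the other 13 were.

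**Figure D5:**
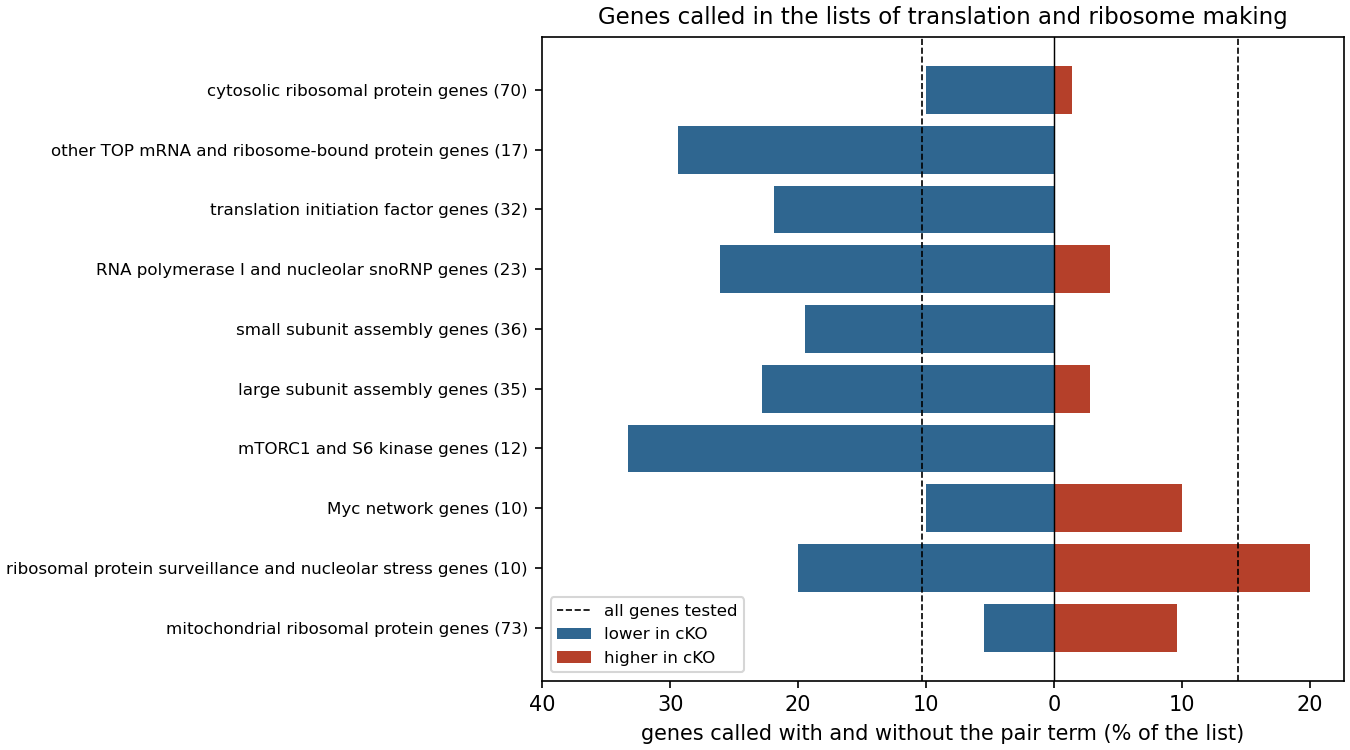
Share of each gene list (number of genes measured in brackets) called lower (left, blue) and higher (right, red) in cKO with and without the pair term; dashed lines mark the shares over all genes, 10.3% and 14.4%. The ribosomal protein genes lie at 10% lower and 1.43% higher, and the lists of ribosome making lie further to the left, in these values as deposited.

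Among genes that regulate ribosomal protein mRNAs, 5 of 12 of the mTORC1 and S6 kinase list were lower and 0 higher (limma, and 0 higher also at an unadjusted p under 0.05), and 4 lower with the pair term. All genes gave 20.1% lower and 25.7% higher as deposited, and 10.3% and 14.4% with the pair term, for this and the next 2 lists. After quantile normalization the mTORC1 list gave 2 lower and 2 higher (all genes 16.8% and 27.8%). After cyclic loess it gave 3 and 1 (18.6% and 25.4%). Rheb, the GTPase that turns mTORC1 on, read 8.69, 8.99 and 9.13 in cKO and 9.48, 9.62 and 9.81 in WT arrays, a fall of 0.64. Eif4ebp2, a repressor of cap-dependent translation, fell by 0.28 and Rptor by 0.16 (named after its value was seen). The remaining gene counted as lower was Rps6ka6, whose mean level of 3.98 is under 4.29, the upper quartile of nonspecific control probe sets, and its difference was not shown to be above background. In the Myc network, 2 of 10 genes were lower and 1 higher as deposited, and 1 each with the pair term: Mnt, a repressor, fell by 0.30 and Mycn rose by 0.21, and Mxd1 differed by -0.58 without passing the pair term (0.089). In the surveillance list, 4 of 10 were lower and 2 higher, and 2 each with the pair term. After quantile normalization and after cyclic loess the surveillance list also had 2 each. Grwd1, whose yeast counterpart is a chaperone of Rpl3, fell by 0.83 and Mdm2, which ribosomal proteins bind under nucleolar stress, by 0.65, while Pdcd2, a chaperone of RPS2 in human cells, rose by 0.58; the other higher gene was Cdkn2a (1.00), named after its value was seen.

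The mitochondrial ribosome, which has its own set of proteins, was the closest family for comparison. Of 73 genes, 15 were lower and 12 higher as deposited, and 4 lower and 7 higher with the pair term, with a median difference of -0.07. The shares lower were 20.5% as deposited, near the 20.1% of all genes, and 5.48% with the pair term, and those higher were 16.4% and 9.59%, each under the share of all genes (25.7% and 14.4%). After cyclic loess 5 of the 73 were lower and 19 higher, where all genes gave 18.6% lower and 25.4% higher. The share lower was then under that of all genes, and the share higher was close to it. Mrps15 (-0.56) fell, and Mrpl47 (0.67) and Mrpl49 (0.31) rose, in all 4 scalings. The difference between the cytosolic and mitochondrial families was not tested.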

How the data were processed

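Values were log2 expression per probe set after RMA, per the submitters' processing notes, as the authors deposited them. RMA version, chip description and build: not given in the sources used here. Per the labels' protocols, 25 ng of RNA was amplified over 17 cycles. Probe sets were named from the platform annotation, and all 70 members were found by gene number in RefSeq with 0 symbols changed. Start-site windows came from RefSeq (GRCm38.p6). The members and lists were chosen with earlier results of these data known.

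Differences were fitted with limma 3.58.1 (lmFit and eBayes, R 4.3.3) over 17097 genes, two-sided, with Benjamini-Hochberg adjustment and no filter on dim probe sets. The pair term gives each pair of neighbouring arrays of a group its own mean; cKO replicate 1 stands alone, because leaving out the first array gave the more negative correlations. Ehmt2 was tested by exact permutation over 1716 splits. Named members were the called ones (both fits), the stalk genes, members with known roles and second copies; up to 3 genes of each list were named by smallest p. Alternatives were 3 scalings, 2 filters, 3 readings of probe sets, a trended prior, array weights, the replicate block, the pair term alone and after scaling, a threshold of 0.01 and each array left out. The fits were tested on simulated data. The number of arrays limits the precision.

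Replicate numbers 2, 6, 8 and 9 occur in both groups, but deviations of same-numbered arrays correlated at -0.30 to 0.05 over all genes and at -0.0036 to 0.15 over the members, not each over 0.1, so they were not taken as pairs.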

Additional observations from a re-analysis of the deposited data

Results flagged for a closer look

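Among 47 genes looked at, in 94 groups of arrays, a single value stood far from the rest of its group. Mdn1 in WT replicate 9 read 5.00, against 4.74 to 4.83 on the other 5 WT arrays. Chance flags about 1 group in 20, and 0 of the named ribosomal protein genes had such a value.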

How the results depend on the processing

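Rpl22l1, Rps13 and Rpl3l kept their direction and their call under each alternative that could be run for them, 27 for Rpl22l1 and Rps13 and 26 for Rpl3l. The number of ribosomal protein genes lower in cKO, 23 as deposited, was 11 after quantile normalization, 6 after cyclic loess, 7 with the pair term, 3 with the pair term after quantile normalization, 2 with it after cyclic loess and 11 at an adjusted p under 0.01. The number higher, 2 as deposited, was 5, 24, 1, 2 and 7 in the first 5 of these and 4 with array weights. It was 0 of 67 with genes below the 50th percentile left out, a filter that also leaves out Rpl3l and Rpl39l. The median difference, -0.070, was 0.0059 after quantile normalization and 0.057 after cyclic loess, with or without the pair term. With the replicate number as a block, 3 members were lower (Rpl22l1, Rps13 and Rpl7l1), 1 was higher (Rpl3l), beside 8.11% and 9.76% of all genes, and 3055 genes were called in all. Calls over all genes, 7830 in both directions together, were 4228 with the pair term, and 3933 and 3845 with it after quantile and cyclic loess normalization. They were 9723 with array weights, 5380 at an adjusted p under 0.01 and 3453 with genes below the 50th percentile left out. Leaving out each array in turn gave 17 to 29 members lower, 2 to 3 higher, a median of -0.081 to -0.058 and 7016 to 7718 genes called.

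Of the 20 named members, 7 turned sign after cyclic loess: Rpl27a (0.018, with and without the pair term), Rplp0 (0.12), Rplp2 (0.10), Rpsa (0.078), Rpl11 (0.034), Rpl24 (0.033) and Rpl22 (0.0063). Of these, 6 also turned after quantile normalization, with 0 called: Rplp0 (0.034), Rplp2 (0.057), Rpsa (0.019), Rpl11 (0.020), Rpl24 (0.017) and Rpl22 (0.032). The sign also turned for Rpl11 (0.26) and Rps20 (-0.39) with the mean over probe sets, and for Rps20 (-1.04) without probe sets marked s or x; the cause was not tested. Filters and leaving out marked probe sets test fewer genes by construction. Dim probe sets near the nonspecific controls, Rpl3l and Rpl39l among them, limit what can be said of their levels.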
